A study of Mus musculus with 2 samples.

Results

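A set of 10 genes that carry the signal of the circadian clock to its target genes, or feed back on the clock, was examined in colon tissue of mice with floxed or unfloxed copies of the prostaglandin E2 receptor EP4 and Cre in the intestinal epithelium. They are the 3 PAR bZIP activators Dbp, Tef and Hlf, their repressor Nfil3, the REV-ERB nuclear receptors Nr1d1 and Nr1d2, the E-box repressors Bhlhe40, Bhlhe41 and Ciart, and the deubiquitinase Usp2. The genes were chosen by name for these roles with the signals of the same 2 arrays already known, so all of their values are a description and none was tested. All 10 were found by RefSeq accession, among 22909 genes named on the arrays, and they had 18 probes.

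Each genotype had 1 Agilent expression array with 1 colour (Cy3). The control array, labelled Villin-Cre, held colon RNA of C57BL/6 mice that carry Cre recombinase under the villin promoter, with no floxed allele named in the label. The other, labelled EP4 cKO, held colon RNA of C57BL/6 mice with the same Cre and 2 floxed copies of Ptger4, the gene of EP4 (genotype Villin-Cre; EP4flox/flox). Per the labels, 3 colon pools were mixed to give the RNA of an array, and by the study's methods the mice were 8 weeks old. Villin-driven Cre acts in the epithelium, so stromal, muscle and immune cells of the same tissue keep the receptor gene. The hour of the day at which the colons were taken is not given in the sources used here.

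Most cells keep a clock in which CLOCK and ARNTL (BMAL1) switch on genes through a DNA element called the E-box, and the products of some of these genes, the PER and CRY proteins, then shut CLOCK and ARNTL off. DBP, TEF and HLF are made under the same control and activate genes with a D-box, an element that NFIL3 also binds, as a repressor. REV-ERB proteins repress Arntl and Nfil3 through ROR elements, BHLHE40, BHLHE41 and CIART dampen the activity of CLOCK and ARNTL, and USP2 removes ubiquitin from clock proteins. In the gut, clock genes are rhythmic in both epithelium and muscle, and many transporters of the epithelium follow a daily rhythm.

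The start regions of Ciart, Tef, Bhlhe41 and Nfil3 are shown because they hold the letters of an E-box or of a ROR element, elements that clock factors bind. Each runs from 250 bases before to 50 bases after a transcription start of RefSeq (build GRCm38.p6), 5′ to 3′ on the strand of the gene, with the matches in capitals. The Ciart window lies at chr3:95882179-95882478 on the minus strand, that of Tef at chr15:81802423-81802722 on the plus strand, that of Bhlhe41 at chr6:145865371-145865670 on the minus strand and that of Nfil3 at chr13:52980990-52981289 on the minus strand.
Ciart: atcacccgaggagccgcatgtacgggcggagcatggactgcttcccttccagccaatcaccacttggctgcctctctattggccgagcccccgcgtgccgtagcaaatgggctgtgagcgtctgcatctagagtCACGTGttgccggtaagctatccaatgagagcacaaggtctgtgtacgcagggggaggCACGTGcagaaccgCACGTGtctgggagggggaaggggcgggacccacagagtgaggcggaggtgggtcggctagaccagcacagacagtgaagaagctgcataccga
Tef: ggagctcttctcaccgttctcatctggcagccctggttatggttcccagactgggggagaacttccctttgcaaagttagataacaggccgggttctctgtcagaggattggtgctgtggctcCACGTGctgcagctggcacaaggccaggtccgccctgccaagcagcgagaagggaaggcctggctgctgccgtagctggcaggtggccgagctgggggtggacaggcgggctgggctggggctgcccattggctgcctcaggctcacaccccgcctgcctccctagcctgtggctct
Bhlhe41: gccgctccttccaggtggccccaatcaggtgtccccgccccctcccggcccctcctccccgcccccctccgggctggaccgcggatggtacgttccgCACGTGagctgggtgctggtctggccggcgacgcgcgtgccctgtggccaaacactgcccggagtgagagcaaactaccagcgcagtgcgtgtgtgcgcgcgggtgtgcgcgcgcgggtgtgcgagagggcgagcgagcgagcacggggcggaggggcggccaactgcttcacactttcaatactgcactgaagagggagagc
Nfil3: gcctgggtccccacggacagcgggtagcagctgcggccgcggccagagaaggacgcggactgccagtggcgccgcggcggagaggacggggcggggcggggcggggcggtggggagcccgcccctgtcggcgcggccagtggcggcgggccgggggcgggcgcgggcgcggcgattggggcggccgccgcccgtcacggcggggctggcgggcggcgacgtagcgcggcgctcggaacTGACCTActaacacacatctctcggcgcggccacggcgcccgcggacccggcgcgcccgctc
Ciart held 3 E-boxes (CACGTG), which began at positions -116, -58 and -44 from the start, and Bhlhe41 held 1, which began at -153. Tef has 2 starts in RefSeq, and each window held 1 E-box, beginning at -127 in the window shown and at -138 in the other. In all, 4 of 10 windows of 9 members held an E-box, against 7.15% of 32851 windows of the same length. The ROR element (TAGGTCA) was read in Nfil3 on the opposite strand, beginning at -12, and 2.61% of all windows held it. The D-box, searched as TTATGTAA, TTACGTAA and TTATGCAA on both strands, was in none of the member windows and in 1.78% of all windows. The cAMP element (TGACGTCA), present in 1.79% of all windows, was in that of Hlf, beginning at -9. None of the matches in the member windows overlapped another. No window was matched for Bhlhe40.

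Signals were scaled so that the trimmed mean of each array was 2500, and each ratio is that of EP4 cKO over Villin-Cre on the log2 scale. The error given after a ratio is the one that the scanner software estimates for the spots, carried to the log2 scale. It covers the reading of the spots and not the spread between mice, which 1 array per genotype cannot give. Over 3345 genes whose 2 probes were both well above background throughout, the probes of a gene differed by a median of 0.20 on the log2 scale, and by more than 0.73 in 10% of these genes. For a probe with a signal well above background on only 1 array, the fold is a bound ("at least"). For it the dim array was given the lowest signal that any probe well above background had there, 125 for Villin-Cre or 57.8 for EP4 cKO, unless the dim probe itself was brighter. Probes well above background made up 45.4% of 56593 probes on the Villin-Cre-labelled array and 51.6% on that labelled EP4 cKO, and no spot was saturated. Ptger4 itself was not lower by 2-fold on the EP4 cKO-labelled array, with signals of 6227 and 5661 for its brighter probe and 393 and 592 for the other. Where these probes lie relative to the floxed part is not given in the sources used here, so on these arrays the genotypes rest on the labels. The study measured the receptor RNA separately in isolated crypts by qRT-PCR, which was not used here. In whole tissue, fewer cells of a type and less RNA per cell cannot be told apart.

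**Figure D1:**
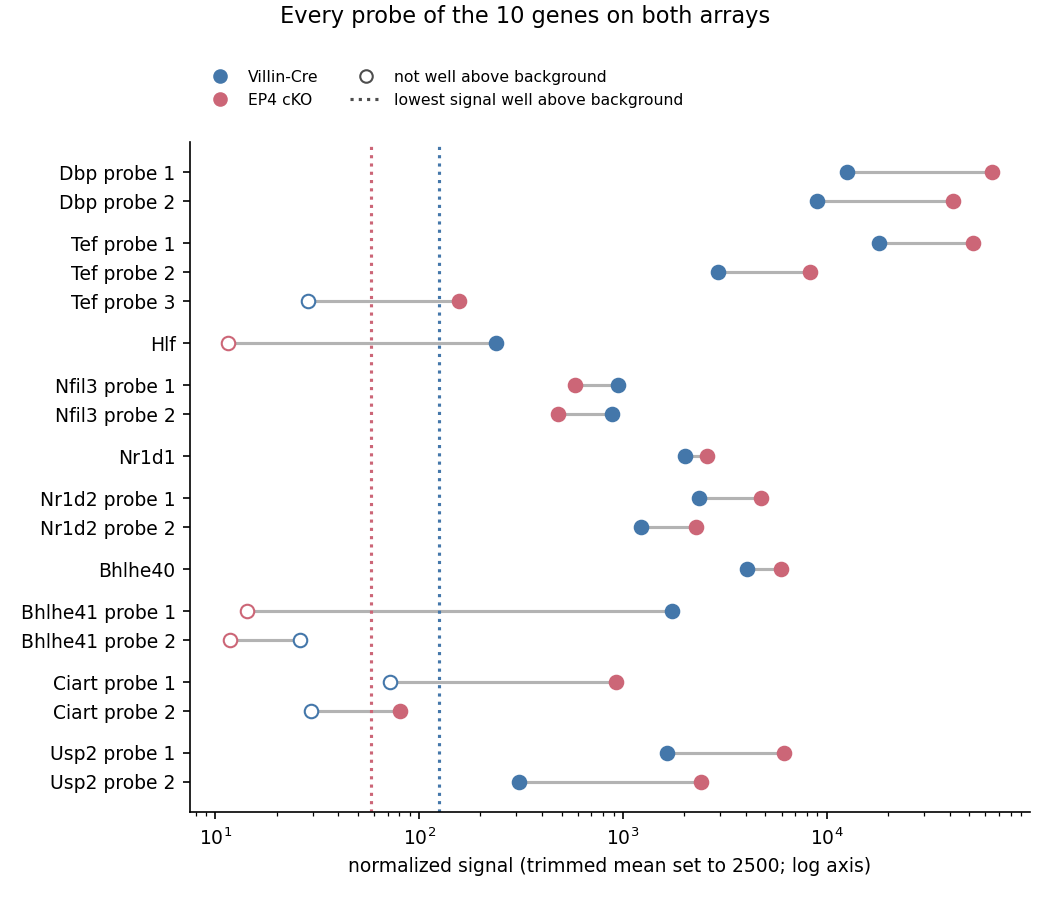
Normalized signal of every probe of the 10 genes (log axis) on the arrays labelled Villin-Cre (blue) and EP4 cKO (red), with open circles for signals not well above background and dotted lines at the lowest signal well above background of each array. Both probes of Dbp and of Usp2 lie further right on the EP4 cKO-labelled array, both probes of Nfil3 lie further left, and the brighter Bhlhe41 probe goes from 1750 to 14.4.

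In all, 5 of the 10 genes had a signal over 2-fold higher on the EP4 cKO-labelled array (Ciart, Dbp, Usp2, Tef and Nr1d2) and 2 were more than 2-fold lower (Bhlhe41 and Hlf). Among all 14679 genes with a value, 717 were higher by more than 2-fold (4.88%) and 1171 lower (7.98%). The split over all genes moved with the scaling, to 942 higher and 921 lower when arrays were scaled at the 75th percentile, 604 and 395 after normexp followed by quantile normalization, 1144 and 728 after loess, and 6137 and 331 with scaling to the spiked-in E1A spots. Of the 10 genes, 7 were well above background on both arrays and 3 (Hlf, Bhlhe41 and Ciart) on only 1. Their median log2 ratio was 0.79, and 1.02 over the 7, while the median of all genes was -0.10. Scalings other than the trimmed mean raised the log2 ratio of the median probe measured on both arrays by 0.16 for the 75th percentile, 0.16 for normexp, 0.18 for loess, 0.12 for a trimmed mean over all spots and 1.07 for the E1A control spots, which read RNA spiked into the sample. With E1A scaling, ratios less than 1.07 below 0 turned positive, those of Nfil3, Arntl and Clock among them. Relative to the median of all genes in the same setting, every one of the 10 genes kept its side of 0 in each of the 8 alternatives that gave it a value (7 for Hlf, Bhlhe41 and Ciart). Most of these alternatives could say little about the 7 genes measured on both arrays. Scaling by the 75th percentile, all spots or E1A moves their ratios by one common amount, and a changed filter on dim probes left them unchanged. Only normexp, loess and averaging of probes could move them singly, and averaging cannot for Nr1d1 and Bhlhe40, with 1 probe each.

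**Figure D2:**
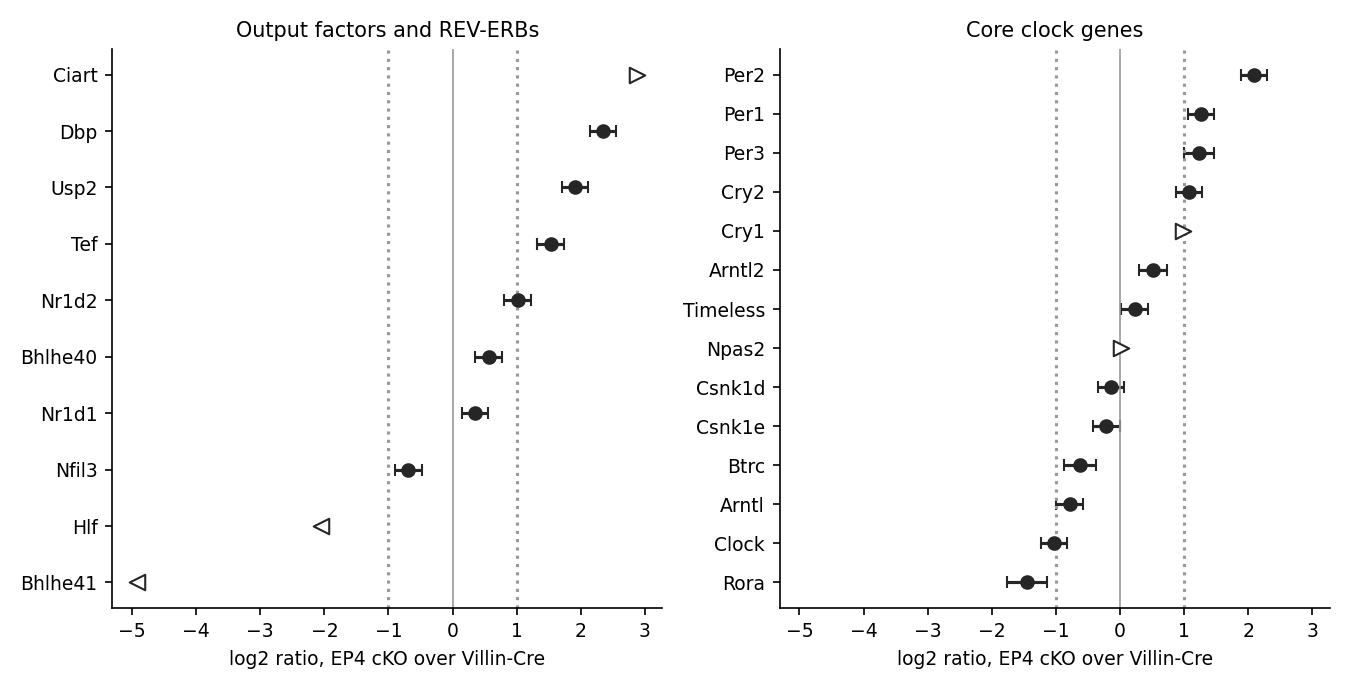
Log2 ratio of EP4 cKO over Villin-Cre for the brightest probe of each output gene (left) and of 14 core clock genes (right), with the software's spot error as bars and open triangles for bounds that point away from 0. Dotted lines mark 2-fold. Dbp (2.35) and Per2 (2.09) have the highest ratios measured on both arrays, and Arntl (-0.78), Clock (-1.02) and Nfil3 (-0.69) are below 0, which they are not with scaling to the E1A control spots.

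The PAR bZIP activators did not lie on one side, with Dbp and Tef higher and Hlf lower on the EP4 cKO-labelled array. Dbp, whose RNA has one of the deepest daily rhythms known, had signals of 12594 on the Villin-Cre-labelled array and 64346 on that labelled EP4 cKO, a log2 ratio of 2.35 ± 0.20. This was 5.11-fold higher and rank 158 from the highest of all 14679 genes. The second Dbp probe had 8948 and 41655, a log2 ratio of 2.22, so that the probes differed by 0.13. On both probes the ratio of Dbp exceeded the spot error.

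Tef, which acts on the same D-boxes, was 2.89-fold higher. The probe of transcript NM_017376 had 17984 and 51907, a log2 ratio of 1.53 ± 0.20, and a probe of NM_153484 had 2921 and 8316, a log2 ratio of 1.51. Probes of both transcripts of Tef thus gave ratios within 0.02 of each other. Another probe, also of NM_153484, was well above background on the EP4 cKO-labelled array only (157), and its bound was at least 1.25-fold higher. The ratio of Dbp exceeded that of Tef by 0.82 ± 0.29, a difference that no scaling factor changes, and by 0.90 after normexp with quantile normalization.

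Hlf, the remaining activator, went the other way. Its only probe had 239 on the Villin-Cre-labelled array and 11.6, not well above background, on that labelled EP4 cKO, so that it was at least 4.13-fold lower. The Hlf probe was near background even where it was brighter, and its log2 ratio was -0.85 after normexp with quantile normalization and -0.98 with scaling to the E1A control spots, within 2-fold in both. Among the 369 genes well above background on the Villin-Cre-labelled array only, 234 were as bright there as Hlf or brighter.

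Nfil3, the repressor at D-boxes that also shapes innate lymphoid cells and lipid handling of the gut epithelium, was lower on both of its probes except with E1A scaling. They had 944 and 584 (a log2 ratio of -0.69 ± 0.21) and 888 and 480 (-0.89). Neither probe reached 2-fold. The brighter one had a ratio of 0.38 under E1A scaling, where the median of all genes was 0.90. Against Nfil3, the ratio of Dbp was higher by 3.05 ± 0.29 and that of Tef by 2.22 ± 0.29, or 8.26-fold and 4.67-fold. After normexp with quantile normalization these differences were 2.70 and 1.79.

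The REV-ERB receptors, heme-binding repressors of Arntl, were both higher on the EP4 cKO-labelled array. Nr1d2 (REV-ERBβ) had 2365 and 4780, a log2 ratio of 1.02 ± 0.20, and its second probe had 1226 and 2284, a ratio of 0.90. The brighter probe lay just past 2-fold (2.02-fold) and the other just within it (1.86-fold). Nr1d1 (REV-ERBα) had 2019 and 2579 on its only probe, a log2 ratio of 0.35 ± 0.21, or 1.28-fold. The ratio of Nr1d2 exceeded that of Nr1d1 by 0.66 ± 0.29. This is more than the spot error but less than the 0.73 that the most discordant 10% of probe pairs of a single gene exceed, so that a difference between the receptors cannot be set apart from a difference between probes.

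Their targets and competitors in the clock had the following values. Arntl, the gene that REV-ERB represses, was lower on all 3 probes (the brightest above 0 with E1A scaling), with 2306 and 1338 on the brightest (-0.78 ± 0.21) and ratios of -1.13 and -1.47 on the others. The ratio of Nr1d2 exceeded that of Arntl by 1.80 ± 0.29 and that of Nr1d1 did so by 1.14 ± 0.29. Rora, a receptor that activates through the same element, had 323 and 118 (-1.45).

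The E-box repressors differed most from each other. Ciart (CHRONO), which binds ARNTL, had 72.0, not well above background, on the Villin-Cre-labelled array and 925 on that labelled EP4 cKO, at least 7.38-fold higher (a log2 ratio of 2.88). The log2 ratio of Ciart was 2.01 after normexp with quantile normalization and 1.44 when its probes were averaged. Its second probe had 29.5 and 81.0 and gave no fold above 1, since 81.0 is below the lowest signal well above background on the Villin-Cre-labelled array. Of 1502 genes well above background on the EP4 cKO-labelled array only, 41 were as bright there as Ciart or brighter. Bhlhe40 (DEC1), which is also induced by hypoxia and in activated T cells, had 4051 and 5981, a log2 ratio of 0.56 ± 0.20, within 2-fold.

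Bhlhe41 (DEC2), the closest relative of Bhlhe40, was far lower. Its probe for transcript NM_001271768 had 1750 on the Villin-Cre-labelled array and 14.4, not well above background, on that labelled EP4 cKO, at least 30.2-fold lower. The probe for NM_024469 had 26.02 and 11.79, neither of them well above background, so that the value of Bhlhe41 rests on 1 probe. After normexp with quantile normalization its log2 ratio was -2.52. Only 9 of the 369 genes well above background on the Villin-Cre-labelled array alone were as bright there.

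Most markers of fibroblasts, which make the collagen matrix, were also lower on the EP4 cKO-labelled array. Of 7 fibroblast markers 6 had a value, and 5 of them were more than 2-fold lower, among them Dcn (6006 and 110), Col1a2 (3613 and 111) and Col3a1 (1621 and 39.9, at least 28.0-fold lower). The summed signal of the 6 was 14573 and 2126, Thy1 was within 2-fold, and Pdgfra had no probe well above background. Of the smooth muscle markers 1 of 6 was more than 2-fold lower (Cnn1), with a summed signal of 32908 and 47366, and of the neuron and glia markers 1 of 3 (Uchl1), with 3783 and 1892. Of the 9 epithelial markers 1 was more than 2-fold higher (Krt20) and none lower, with a summed signal of 1934693 and 2231110, and of the 5 immune cell markers with a value 1 was higher (Cd52), with 54417 and 76400. Of the endothelial markers 1 of 5 had a value (Pecam1, 172 and 152), and none of the 4 fat cell markers did. The part of these cell types in the values of Bhlhe41, Hlf or the other 8 genes was not tested.

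Usp2, which stabilizes clock and other proteins by removing ubiquitin, was higher on both probes, with 1645 and 6179 on the brighter (1.91 ± 0.21, or 3.76-fold) and 309 and 2405 on the other (2.96, or 7.78-fold). Both probes are listed under transcript NM_198092. They differed by 1.05, more than the probes of all but 4.18% of the genes with 2 probes, so that the direction of Usp2 was shared by its probes and its size was not. The other 4 members with 2 probes well above background on both arrays had differences of 0.02 to 0.19.

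**Figure D3:**
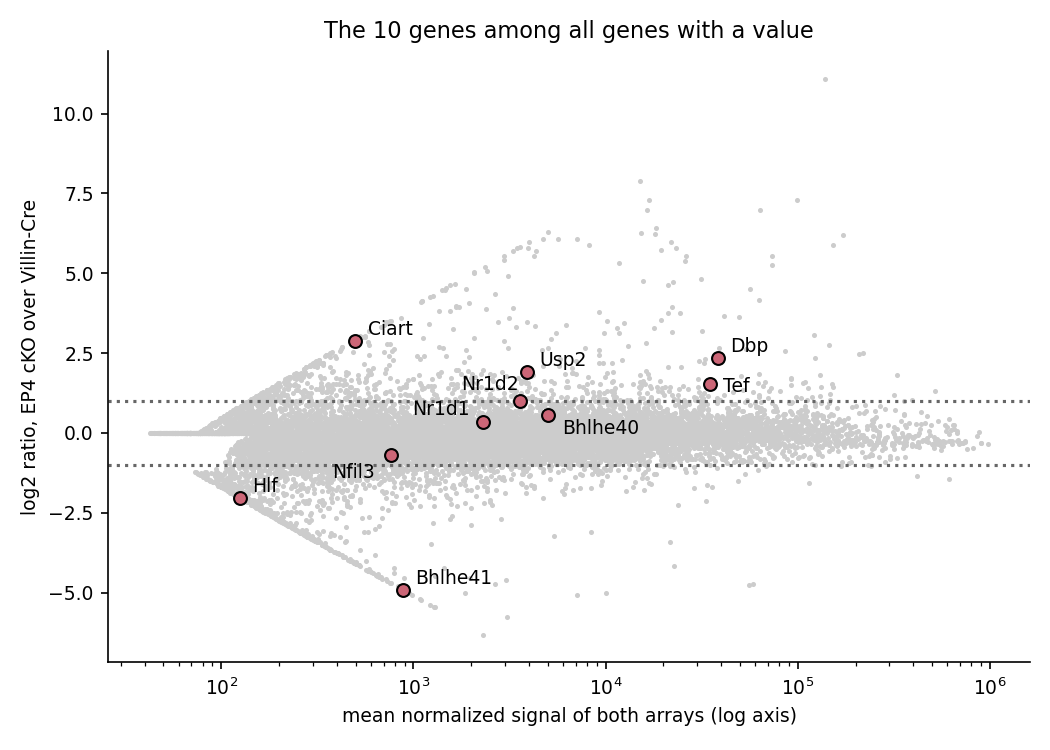
Log2 ratio of EP4 cKO over Villin-Cre against the mean normalized signal of both arrays (log axis) for the brightest probe of all 14679 genes with a value (grey) and the 10 genes (red). Dotted lines mark 2-fold and the straight grey edges are bounds. Dbp (2.35) and Tef (1.53) lie at the bright end, while Ciart, Hlf and Bhlhe41 lie on the edges formed by bounds.

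When all genes were split by mean signal into 10 classes of about equal size, Dbp and Tef stood in the brightest class, in which 5.31% of genes were past 2-fold on the higher side. In class 7 from the dimmest, which held Nr1d2, Bhlhe40 and Usp2, the share was 3.68%, and in class 3, which held Ciart, it was 8.17%. Hlf stood in the dimmest class, where 13.6% were past 2-fold on the lower side, and Bhlhe41 and Nfil3 in class 4, where 9.88% were.

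The core clock genes were taken as a list of 18, chosen with earlier results of these arrays known, of which 16 had a value. Of these, 4 were more than 2-fold higher (Per2, Per1, Per3 and Cry2) and 2 more than 2-fold lower (Rora and Clock), with a median of 0.18. After normexp with quantile normalization Rora (-0.50), Clock (-0.93) and Per3 (0.99) were within 2-fold. The value of Rora rests on 1 probe, since its other probes were not well above background. The period genes, whose products repress CLOCK and ARNTL, were higher on the probes measured on both arrays. Per2 had 1792 and 7649 (2.09 ± 0.21), Per1 had 5799 and 13896 (1.26 ± 0.20) and Per3 had 343 and 811 (1.24 ± 0.24). Second probes of Per2 (99.8 and 69.0) and Per3 (52.4 and 108) were not well above background on the Villin-Cre-labelled array and gave no fold above 1.

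Of the cryptochromes, the partners of the PER proteins, Cry2 had 5523 and 11681 (1.08 ± 0.20) and Cry1 had 58.3 and 247, at least 1.97-fold higher. Clock, the partner of ARNTL, had 6917 and 3399 (-1.02 ± 0.20) and a second probe with 2782 and 1960 (-0.51), both above 0 with E1A scaling. The ratio of Clock passed 2-fold on the brighter probe only, and by a margin that scaling at the 75th percentile or normexp removed. Npas2, which can replace CLOCK, had 64.9, which was not well above background, and 127, at least 1.01-fold higher, and Arntl2 had 532 and 761 (0.52).

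The kinases and ligase subunits that set the lifetime of PER and CRY proteins were within 2-fold. Csnk1d had 52324 and 47549 (-0.14), Csnk1e 818 and 706 (-0.21) and Btrc 346 and 223 (-0.63), with each of these ratios above 0 under E1A scaling. Dimmer probes of Csnk1d lay above 0, with 612 and 792 (0.37) and with 271.5 and 307 (0.18). The direction of Csnk1d was thus not shared by its probes, while the dimmer probes of Csnk1e lay below 0 (-0.38 and -0.13). Timeless had 1025 and 1202 (0.23), Fbxl21 was not well above background, and no probe was matched to Rorb. Relative to the median of all genes, the sign of Csnk1d and of Csnk1e changed between settings, and that of the other 14 did not. The ratio of Dbp exceeded that of Arntl by 3.14 ± 0.29 and that of Per2 did so by 2.88 ± 0.29.

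**Figure D4:**
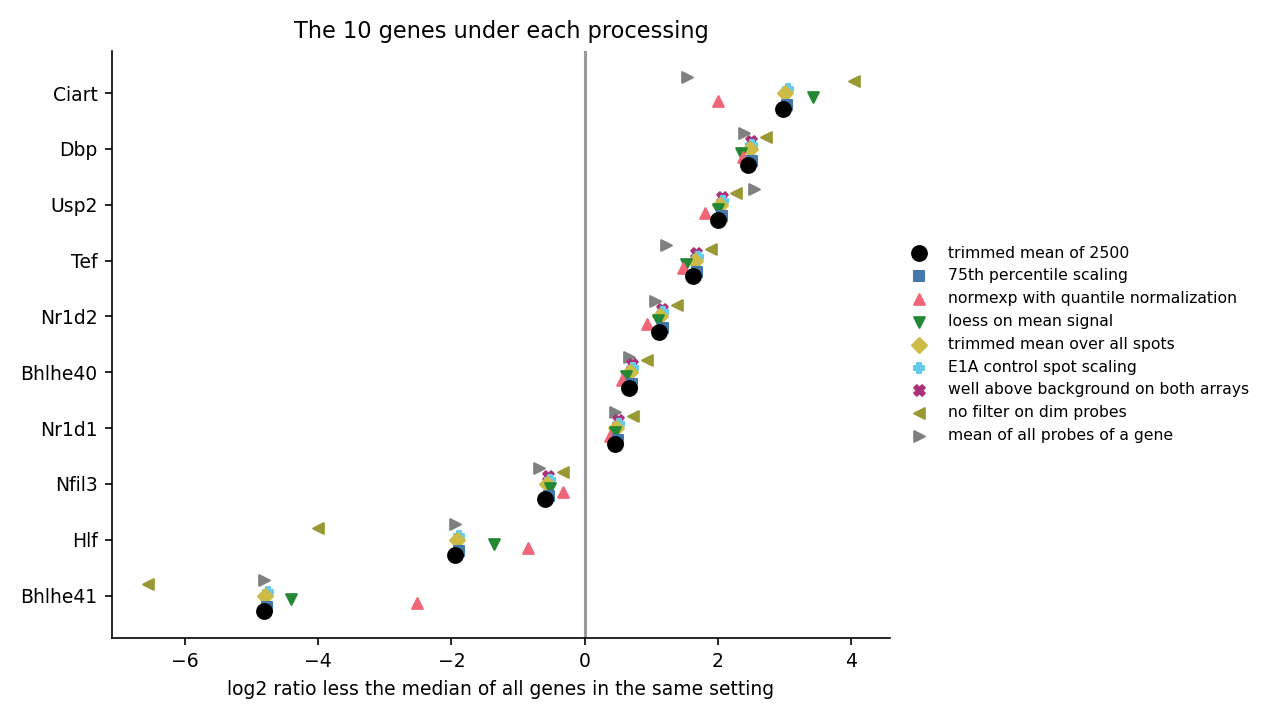
Log2 ratio of the 10 genes less the median log2 ratio of all genes in the same setting, for the scaling to a trimmed mean of 2500 (black) and for each alternative. Hlf and Bhlhe41 have no value among probes well above background on both arrays, nor has Ciart. No gene crosses 0, and Bhlhe41 (-6.56 to -2.52), Hlf (-3.995 to -0.85) and Ciart (1.55 to 4.05) move most.

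Genes further downstream were described by lists of known targets. Of 12 genes that PAR bZIP factors are known to activate in liver, kidney, brain or gut, 8 had a value, none was past 2-fold in either direction, and the median was -0.04. Pdxk, the kinase that makes active vitamin B6, had 26243 and 14086 (-0.90), Aldh1a1, which makes retinoic acid, 4499 and 2454 (-0.87), and Ppara, a receptor for fatty acids, 2526 and 1523 (-0.73). Por, which passes electrons to cytochromes P450, had 23959 and 40432 (0.75), and Nr1i3, a receptor for foreign compounds, 871 and 1234 (0.50). The listed targets thus lay on both sides of 0, although with E1A scaling Pdxk, Aldh1a1 and Ppara were above it.

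Of 13 known targets of REV-ERB repression, among them Arntl, Clock, Cry1, Npas2 and Nfil3, 10 had a value, with a median of 0.16. Clock and Lpl (437 and 34.1, at least 7.55-fold lower) were more than 2-fold lower, and Ccl2, a chemokine, was at least 4.24-fold higher. Cdkn1a, an inhibitor of the cell cycle, had 16232 and 29483 (0.86), and Insig2, a brake on sterol synthesis, 4119 and 5202 (0.34).

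Of 7 other genes with a daily rhythm in most tissues or in gut epithelium, 2 were past 2-fold on the higher side and 0 on the lower, with a median of 0.64. Slc9a3, the sodium and proton exchanger NHE3 of the brush border, had 1662 and 18703 (3.49 ± 0.21, or 11.3-fold), and Nampt, an enzyme of NAD synthesis, had 1954 and 5718 (1.55). Tspan4 had 367 and 703 (0.94), Tsc22d3 10986 and 17132 (0.64) and Wee1, a kinase that holds back mitosis, 1032 and 1520 (0.56). In this list 6 of 7 genes lay above 0.

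Of 8 genes that glucocorticoids induce, a hormone signal that resets peripheral clocks, 2 were more than 2-fold higher (Per1 and Fkbp5, which had 9677 and 20525, 1.09), while 0 of 8 were lower past that limit, and their median was 0.56. Sgk1 had 31491 and 53656 (0.77) and Dusp1 had 17684 and 11503 (-0.62, above 0 with E1A scaling). Of 7 genes induced by cAMP, the messenger that EP4 raises, Per1 was more than 2-fold higher and Nr4a2 (673 and 246, -1.45) and Nr4a1 (12990 and 5330, -1.28) more than 2-fold lower, with a median of -0.56 that lies above 0 with E1A scaling. Nr4a2 was within 2-fold after normexp with quantile normalization (-0.92), and Nr4a2 and Nr4a1 both were with E1A scaling. The C/EBP family, other bZIP factors, had 5 of 6 genes with a value, from -0.33 to 0.30, and none past 2-fold.

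**Figure D5:**
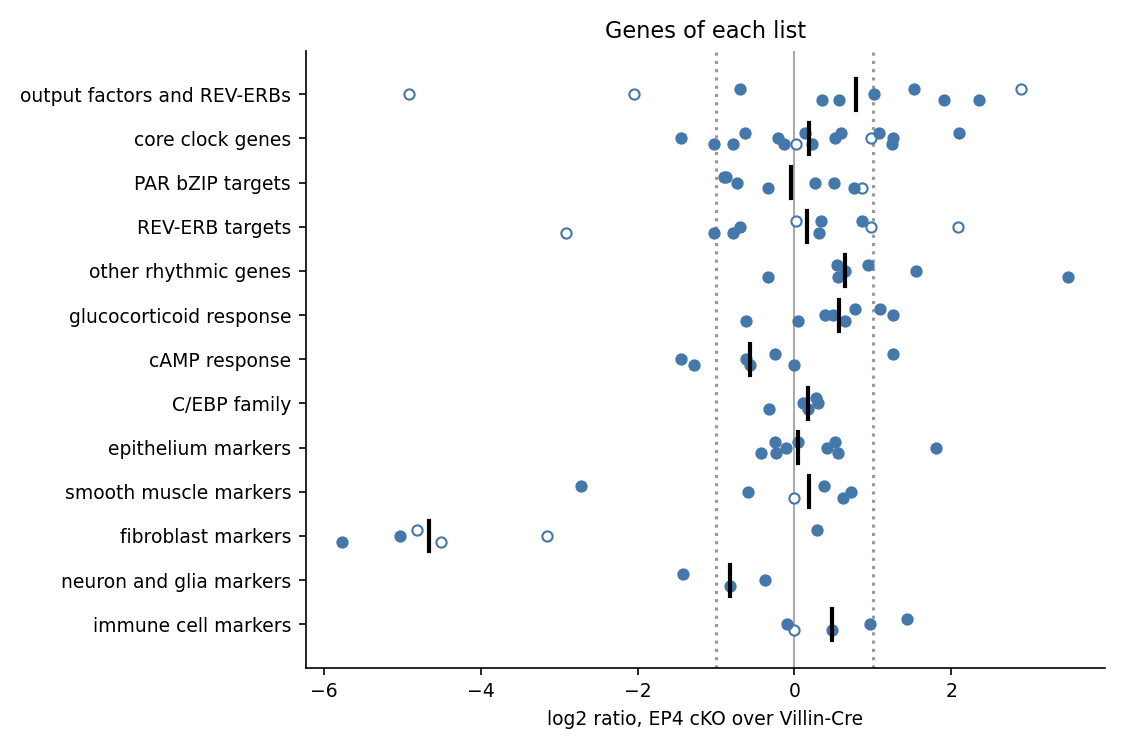
Log2 ratio of EP4 cKO over Villin-Cre of each gene with a value (filled, well above background on both arrays; open, bound from 1 array) in the lists of clock genes, targets and cell type markers, with a bar at the median of each list and dotted lines at 2-fold. The output factors run from -4.92 to 2.88, with a bound at either end, the core clock genes run from -1.45 to 2.09, and 5 of the 6 fibroblast markers lie past 2-fold on the lower side, 3 of them as bounds.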

How the data were processed

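RNA of whole colon was measured on 2 Agilent mouse arrays, 1 per genotype. The authors deposited scanner intensity values (Feature Extraction 12.0.3.1 per the file headers, 11.5.1.1 in the submitters' processing notes), background-subtracted and detrended but not scaled between arrays. Control spots were dropped, as were 195 spots that the scanner software calls outliers on either array, spots of a probe were averaged, and each array was scaled to a trimmed mean of 2500 without 2% of the probes at each end, as in the study's methods (factors 3.45 and 2.68). Per the file headers the deposited flag for signal well above background was used, as was the intensity error of each spot. Of 56593 probes, 32989 (58.3%) were named through the RefSeq accession in a table of GRCm38.p6, and the array grid refers to an older build. For each gene the probe of highest mean signal was used, among probes with that flag on 1 array or both.

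Members and lists were chosen with earlier results of these data known. All members and core clock genes were to be named, and of each other list at most the 5 genes with the largest ratios measured on both arrays. Of the core clock genes with a value, 2 enter the counts and medians but are not reported singly here. Genes outside that rule (Ccl2, Lpl and Col3a1) were named after their values were seen. With 1 array per genotype no p-value is given, and the number of arrays limits the precision. Normexp (offset 50) used the median signal of each spot, followed by quantile normalization, and loess had a span of 0.3. Steps were tested on simulated data. Python 3.11.15, numpy 2.4.6, pandas 2.3.3, statsmodels 0.14.6, matplotlib 3.10.9, R 4.3.3 and limma 3.58.1 were used.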

Additional observations from a re-analysis of the deposited data

How the results depend on the processing

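No paired analysis was possible because there was 1 array per genotype, and for the same reason no sample could be left out. The ratios of single members kept their sign in every alternative except Nfil3 with scaling to the E1A control spots. The median of the members was 1.86 with that scaling and 1.02 when both arrays had to be well above background. The median of all genes in these settings was 0.90 and -0.15. The count of members more than 2-fold higher (5) was 3 at a 3-fold threshold, 7 with E1A scaling and 4 after normexp with quantile normalization, when the probes of each gene were averaged, or when both arrays had to be well above background. The count more than 2-fold lower (2) was 1 after normexp with quantile normalization, 1 with E1A scaling and 0 when both arrays had to be well above background. The median of the core clock genes was 0.55 after loess and 1.25 with E1A scaling, where that of all genes was 0.03 and 0.90. Of the 16 core clock genes with a value, 10 were more than 2-fold higher with E1A scaling, in place of 4, and 1 was past 3-fold with the trimmed mean. With E1A scaling 41.8% of all genes were also past 2-fold on that side, so the rise to 10 goes with a shift of the whole array. The count of core clock genes more than 2-fold lower (2) was 1 with the 75th percentile, 1 after loess and 1 with a trimmed mean over all spots. It was 0 after normexp with quantile normalization, 0 with E1A scaling, 0 at 3-fold and 4 at 1.5-fold. The causes of these changes were not tested. Without a filter on dim probes, the counts over all genes (717 higher and 1171 lower) became 1172 and 7253. Signal over background limits Hlf, Bhlhe41 and Ciart, whose folds are bounds.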
